A study of Mus musculus with 4 samples.

Results

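Gtsf1 and 8 other genes of the germline piRNA pathway were examined in BA/F3 cells, an established mouse cell line that needs interleukin 3 to grow and often serves as an early B cell model. The members were the probe sets whose only platform symbol was Gtsf1, Gtsf1l, Piwil1, Piwil2, Piwil4, Mael, Ddx4, Tdrd1 or Asz1. These were 12 of the 45101 probe sets on the array and 9 of its 18193 genes with a probe set of 1 symbol. A probe set is a group of short probes that reads 1 transcript. All 12 were kept, including those at background. Gtsf1 came to attention because of its difference between the libraries when these are grouped by the description field, so its values in that grouping are given as a description, without a test.

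The study holds 4 RNA libraries, 2 titled as BA/F3 cells with an inducible human ETV6-RUNX1 (TEL-AML1) gene and 2 titled as BA/F3 control cells. ETV6-RUNX1 is a fusion transcription factor found in childhood B-cell leukemia. Mifepristone, which switches the fusion gene on, was given to both lines at 32.5 pM for 16 h, so the controls carry the drug as well. The design text calls the control line an empty vector line. The sources used here do not give the promoter that drives the fusion gene or the number of clones per line. The description field names the opposite condition for both replicate 1 libraries: ETV6-RUNX1 replicate 1 of the titles is a control there, and control replicate 1 of the titles expresses the fusion. For both replicate 2 libraries title and description name the same condition. Chromatin immunoprecipitation is also named in the titles and the design text, but the extraction protocol is one for total RNA and the array measures expression, so every value below was read as an RNA level. Libraries are named by title, and "described fusion" and "described control" refer to the description field. Nothing in the labels says that the replicates came from separate cultures, so p-values measure only the spread between these libraries.

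PIWI proteins are Argonaute-family proteins that bind piRNAs, a class of small RNAs made mostly in germ cells, and use them to silence transposable elements. In the mouse testis Piwil2 (MILI) and Piwil4 (MIWI2) act in fetal germ cells, where they direct cleavage of transposon transcripts and DNA methylation of transposon promoters, and Piwil1 (MIWI) acts later in sperm development. Gtsf1 is a small zinc finger protein that binds PIWI proteins and is needed for their target cleavage, while Tdrd1, Mael, Asz1 and Ddx4 (the mouse Vasa protein) are components of the germ granules and mitochondria-associated sites in which piRNAs are made and used. Most of these genes are silent in somatic cells, where DNA methylation and a repressive Polycomb complex that binds E-boxes and E2F sites keep many germline promoters shut.

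The 250 bases before the transcription start of 3 members are shown to compare the member that varied most with its paralogue Gtsf1l and with Mael, both of which stayed at background. The sequences are RefSeq's for mouse build GRCm38.p6, 5′ to 3′ on the gene's strand, and capitals mark CpG dinucleotides, the bases that DNA methylation acts on. The Gtsf1 window is chr15:103430428-103430677, the Gtsf1l window chr2:163089602-163089851 and the Mael window chr1:166238745-166238994, all on the minus strand. The starts are those of the promoter entries and need not be the outermost start of a gene. The Gtsf1 window begins inside the annotated gene, which ends at 103430445.
Gtsf1: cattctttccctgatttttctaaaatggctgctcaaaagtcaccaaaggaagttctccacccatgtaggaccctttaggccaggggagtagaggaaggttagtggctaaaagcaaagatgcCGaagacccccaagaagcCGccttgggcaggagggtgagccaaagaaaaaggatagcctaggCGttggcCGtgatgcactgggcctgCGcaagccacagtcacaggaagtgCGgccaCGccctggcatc
Gtsf1l: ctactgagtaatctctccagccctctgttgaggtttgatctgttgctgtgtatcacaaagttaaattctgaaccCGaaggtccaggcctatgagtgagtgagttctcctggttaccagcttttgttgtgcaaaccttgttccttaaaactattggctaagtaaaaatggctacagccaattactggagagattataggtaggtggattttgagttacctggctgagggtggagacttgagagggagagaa
Mael: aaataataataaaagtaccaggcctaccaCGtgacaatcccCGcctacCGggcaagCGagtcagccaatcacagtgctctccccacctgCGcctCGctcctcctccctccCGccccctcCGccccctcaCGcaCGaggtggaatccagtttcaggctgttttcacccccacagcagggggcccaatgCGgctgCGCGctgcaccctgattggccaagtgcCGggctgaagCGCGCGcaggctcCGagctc

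The Gtsf1 window held 7 CpGs, against 1 in Gtsf1l and 18 in Mael. Over 32817 promoter windows of this length the median was 6, so Gtsf1 lay near the middle, with 53.7% of windows holding fewer. The other members at background ranged from 0 CpGs at one start of Piwil4 to 31 at Ddx4. The Ddx4 window lies wholly inside the annotated gene and the Piwil1 window partly inside its own. Piwil2 is not in the promoter table.

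Motif letters were searched on both strands of each window after the sequences had been seen. The E-box CACGTG, the letters bound by the germline-repressing Polycomb complex and by MYC, was present in 5 of 11 member windows and in 6.02% of all windows. The 5 were those of Piwil1, Mael, Ddx4 and both overlapping windows at 1 end of Tdrd1. These Tdrd1 windows hold the same site, so by gene 4 of the 8 members with a window held the E-box. The E-box itself contains a CpG, and the 5 windows held 11 to 31 CpGs, against a median of 6 over all windows. The shares were not matched for CpG content, so nothing is read from the gap between them. In the Mael sequence above it reads caCGtg, with its first base 223 bases before the start. It was not found in the windows of Gtsf1, Gtsf1l, Piwil4 or Asz1. The ETS core GGAAGT, the letters read by ETS factors such as ETV6, occurred at 2 places in Gtsf1, beginning 203 and 25 bases before the start. It was also found in Asz1 and Ddx4, in 3 of 11 member windows in all, and in 19.7% of all windows. The RUNX core TGTGGT was found in Piwil1 and at one start of Piwil4 but not in Gtsf1, and 14.0% of all windows held it. A match is a run of letters, not evidence that a factor binds there.

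Values were the authors' GCRMA summaries on the log2 scale. The lowest value, 2.23, was the same in every library and is called the floor here. A value near it is a background reading, and a difference from it is cut off and is not a measured fold. Of the 12 member probe sets, 3 reached at least 2 above the floor in some library, 2 of Gtsf1 and 1 of Piwil2. The other 9, covering 7 genes, stayed within 0.5 of the floor in all 4 libraries. On the whole array 40.1% of 45037 probe sets outside the controls reached 2 above the floor and 53.2% stayed within 0.5 of it.

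Gtsf1 was read far above the floor in the 2 described fusion libraries and much lower in the 2 described control libraries. It lies on chromosome 15 (103402458 to 103430445, GRCm38.p6) and was measured by 2 probe sets. The one with the higher mean level, 1452967_at, read 9.08 in control replicate 1 and 8.51 in ETV6-RUNX1 replicate 2. Its values were 2.75 in ETV6-RUNX1 replicate 1 and 3.67 in control replicate 2. The 2 described groups did not overlap, and each title group held 1 high and 1 low library.

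The other Gtsf1 probe set, 1441836_x_at, showed the same division of libraries. It read 9.37 in control replicate 1 and 9.18 in ETV6-RUNX1 replicate 2, against 2.27 in ETV6-RUNX1 replicate 1 and 2.39 in control replicate 2. The suffix of this probe set marks probes that may also match other transcripts, and 1452967_at carries no such suffix. The low pair lay within 0.5 of the floor at this probe set and further above it at 1452967_at.

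Grouped by description, 1452967_at averaged 8.79 ± 0.40 (SD, n = 2) in described fusion and 3.21 ± 0.65 in described control libraries, which is 5.58 apart on the log2 scale. 1441836_x_at averaged 9.28 ± 0.13 against 2.33 ± 0.08, which is 6.95 apart. Among the description differences of all 45037 probe sets outside the controls, 1441836_x_at ranked 1 and 1452967_at ranked 4, counted from the most raised. These values are the ones for which Gtsf1 was chosen. In the replicate 2 pair, the only one whose labels agree, the fusion library was higher by 4.84 and 6.80 on the log2 scale, in the order given. In the replicate 1 pair the library titled fusion was the lower one, with log2 differences of -6.32 and -7.10.

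Grouped by title, Gtsf1 did not separate fusion from control cells. 1452967_at averaged 5.63 ± 4.07 (SD, n = 2) in the libraries titled fusion and 6.37 ± 3.82 in those titled control. The log2 difference was -0.74 (SE 2.90) with a limma adjusted p = 1. 1441836_x_at differed by -0.15 (SE 3.60, limma adjusted p = 1). The sign of the title difference rested on single libraries. For 1452967_at it was 2.13 without the library titled ETV6-RUNX1 replicate 1 and 1.96 without control replicate 1, and -3.45 without control replicate 2 and -3.62 without ETV6-RUNX1 replicate 2. Of 17720 probe sets tested by title with limma, 0 (0%) passed an adjusted p of 0.05 and 50 (0.282%) had an unadjusted p under 0.05.

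**Figure D1:**
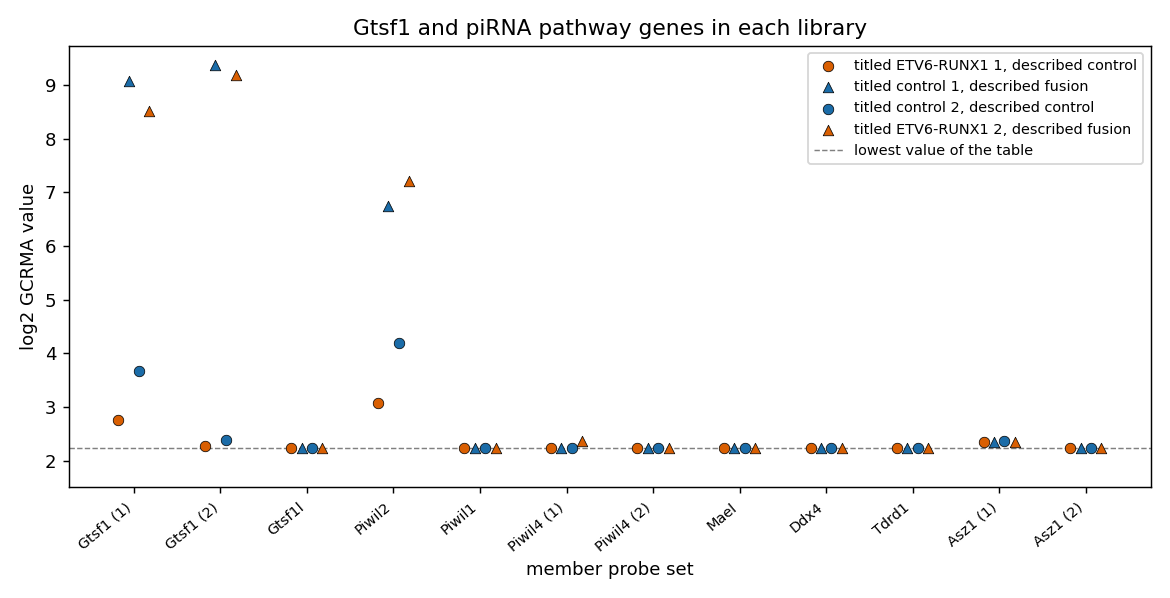
Log2 GCRMA value (vertical axis) of each of the 12 member probe sets (horizontal axis) in the 4 libraries; colour gives the condition in the title, shape the condition in the description, and the dashed line the lowest value of the table. Triangles (described fusion) stand apart from circles (described control) at both Gtsf1 probe sets and at Piwil2, while the 9 other probe sets lie within 0.5 of the floor.

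Piwil2, the PIWI protein MILI, was the other member with a reading well above background, and it was high in the same 2 libraries as Gtsf1. Its probe set 1449170_at (chromosome 14, 70372477 to 70436898, GRCm38.p6) read 6.74 in control replicate 1 and 7.20 in ETV6-RUNX1 replicate 2. Its values were 3.08 in ETV6-RUNX1 replicate 1 and 4.20 in control replicate 2. The described groups did not overlap, and both title groups again held 1 high and 1 low library.

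By description Piwil2 averaged 6.97 ± 0.33 (SD, n = 2) in described fusion and 3.64 ± 0.79 in described control libraries. They lay 3.34 apart on the log2 scale, which ranked 53 among all probe sets outside the controls. It was 3.01 higher in the fusion library of the replicate 2 pair. By title the difference was -0.33 (SE 1.79, limma adjusted p = 1). Without single libraries it ran from -2.39, without ETV6-RUNX1 replicate 2, to 1.73, without ETV6-RUNX1 replicate 1, and it was also above 0 without control replicate 1, at 0.94. At least 2-fold higher values without overlap in the described fusion libraries occurred in 3 of the 12 member probe sets and in 2.41% of all probe sets outside the controls. Since the members were proposed with this contrast in view, nothing is read from that count.

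The other PIWI proteins, the Gtsf1 paralogue and the germ granule components were not read above background. Piwil1 read 2.23 in each library, and both Piwil4 probe sets lay at 2.23 apart from a single 2.36 in the library titled ETV6-RUNX1 replicate 2. Gtsf1l, the Gtsf1 paralogue, read the floor value in all 4 libraries. Tdrd1, a Tudor domain protein that binds methylated arginines of Piwil2, and Ddx4, an RNA helicase, did too. Mael, an HMG-box protein of the pathway, ranged only from 2.23 to 2.24. Asz1, a mitochondrial scaffold protein, read 2.36 at one probe set and 2.23 at the other. In 6 of the 12 member probe sets the value was identical in all 4 libraries. A reading at the floor shows no signal above this array's background and does not show that a transcript was absent.

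The piRNA pathway outside the members was read from a list of 36 further genes, of which 29 had a probe set. In 16 of these 29 the brightest probe set stayed within 0.5 of the floor in every library, against 53.2% of all probe sets outside the controls. That share counts every probe set and not only the brightest of a gene, and nothing is read from the list's count. Among the 16 were Pld6, the mitochondrial nuclease that makes piRNA 5′ ends, Mov10l1, the helicase that feeds it, and Henmt1, which methylates piRNA 3′ ends. Tdrkh, Pnldc1, Tdrd5 and Tdrd12 were also among them. The 13 genes past the filter (a mean log2 value of at least 4 over the 4 libraries) included general factors such as Prmt5, Wdr77, Ago1, Ago2 and Hsp90aa1, which are active in most cells. Exd1, Mybl1 and Tdrd9 were also among the 13.

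Of these 13 tested genes, 0 passed an adjusted p of 0.05 by description or by title in limma, with lowest adjusted p-values of 0.14 and 1. By description 2 (0.0113%) of the 17720 tested probe sets passed. At an unadjusted p under 0.05 by description there were 4 of 13, 1 higher and 3 lower, against 19.7% of all tested probe sets. The median description difference was -0.19, against -0.01 over all tested probe sets.

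Prmt5 and Wdr77 form the enzyme that methylates arginines on PIWI proteins. Wdr77 read 9.73 and 10.24 in the described fusion libraries and 11.30 and 11.51 in the described control libraries, without overlap. Its log2 difference was -1.42 (SE 0.23, limma adjusted p = 0.14), and its other tested probe sets differed by -1.48 and -2.18. Prmt5 differed by -0.88 (SE 0.23, limma adjusted p = 0.19). Both thus had values in the direction opposite to Gtsf1 and Piwil2, and neither passed the threshold.

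Exd1, a piRNA biogenesis factor, read 7.64 and 7.75 in the described fusion libraries against 6.43 and 7.15, a difference of 0.90 (SE 0.31, limma adjusted p = 0.25). Mybl1 read 8.42 and 7.44 against 7.15 and 6.49, a difference of 1.11 without overlap (SE 0.46, limma adjusted p = 0.31). Tdrd9 differed by 0.64 with overlap (SE 0.44, limma adjusted p = 0.50). By description 4 of the 13 tested genes were higher and 9 lower. Ago2, the slicing Argonaute of the somatic microRNA pathway, differed by 0.54 (SE 0.22, adjusted p = 0.30) and the chaperone Hsp90aa1 by -0.19 (SE 0.06, adjusted p = 0.21), with -0.77 and -0.83 at its dimmer probe sets. Ago3 and Mov10 had the smallest unadjusted p-values by title, with differences of 0.74 and 0.31 and adjusted p = 1. The Ago3 difference rested on a single library, with 7.67 in ETV6-RUNX1 replicate 1 and 6.15 to 6.21 in the others. The dimmer tested probe set of Ago3 had the opposite sign by title, at -0.26. By description both Ago3 probe sets were lower, at -0.77 and -1.22. The probe sets of Tdrd3 disagreed by description, at -0.03 for the brighter and 0.82 for the dimmer.

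Wider germ cell identity was not visible in any library. Of 40 germ cell and meiosis genes, 38 had a probe set. At the brightest probe set 34 of these stayed within 0.5 of the floor, against 53.2% of all probe sets outside the controls. Dazl, Sycp3, Stra8, Tex101, Pou5f1 and Prm1 were among the 34. Only Zbtb16, which also acts in blood cells, passed the filter, and it differed by -0.15 (SE 0.30, limma adjusted p = 0.83) by description. The mean log2 value over the 38 genes lay between 2.52 and 2.55 in all 4 libraries. Their summed linear signal was 1403 and 980.1 in the described fusion libraries and 1449 and 1124 in the described control libraries. Most of that sum was Zbtb16, with log2 values of 10.24 and 9.63 against 10.29 and 9.87, so it says little about the other genes. The high Gtsf1 and Piwil2 readings came in libraries in which most of these germ cell markers were near the floor.

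Factors that keep germline promoters silent were mostly read above background. Of 26 listed genes 25 had a probe set and 24 passed the filter. In limma 0 of 24 passed the threshold by description (lowest adjusted p = 0.14) or by title (lowest adjusted p = 1). Of all tested probe sets 0.0113% and 0% passed, so nothing is read from that count. By description 5 of 24 had an unadjusted p under 0.05, 2 higher and 3 lower, against 19.7% of all tested probe sets, and the list median was -0.11.

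Among the subunits of the Polycomb complex that binds E-boxes and E2F sites, Pcgf6 read 8.31 and 8.54 in the described fusion libraries and 9.25 and 9.44 in the described control libraries. The difference was -0.92 (SE 0.18, limma adjusted p = 0.16). E2f6 went the other way, with a difference of 0.46 (SE 0.16, adjusted p = 0.25), and its cofactor Tfdp1 differed by -0.42 (SE 0.13, adjusted p = 0.23). Hdac1, a histone deacetylase, differed by -0.72 (SE 0.11, adjusted p = 0.14).

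Of the DNA methyltransferases, Dnmt3a, a de novo enzyme, differed by 0.84 (SE 0.16, limma adjusted p = 0.15) at its brightest probe set, and 1 of its 5 tested probe sets had the opposite sign, at -0.14. Dnmt3l, the germline cofactor of these enzymes, lay near the filter and differed by -0.33 (SE 0.35, adjusted p = 0.65) by description and by -0.43 by title. Cbx1, a heterochromatin protein, differed by 0.19 by title. Neither title difference passed, with adjusted p = 1.

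Gtsf1 belongs to a small family that shares the CHHC zinc finger with Snrnp48 and Trmt13, a splicing factor of the minor spliceosome and a tRNA methyltransferase. Of the 8 genes with a probe set in a list of minor spliceosome and CHHC genes, all 8 passed the filter. In limma 0 passed the threshold by description or by title, against 0.0113% and 0% of all tested probe sets. At an unadjusted p under 0.05 there were 1 and 0, against 19.7% and 0.282%. Snrnp48 differed by -0.66 (SE 0.19, limma adjusted p = 0.21) and Trmt13 by -0.52 (SE 0.24, adjusted p = 0.34) by description, both in the direction opposite to Gtsf1. The values of Rnpc3 and Snrnp25 were -0.46 and -0.64, and that of Zmat5 was 0.15. By title Zmat5 differed by -0.21 and Pdcd7 by 0.29, with adjusted p = 1.

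**Figure D2:**
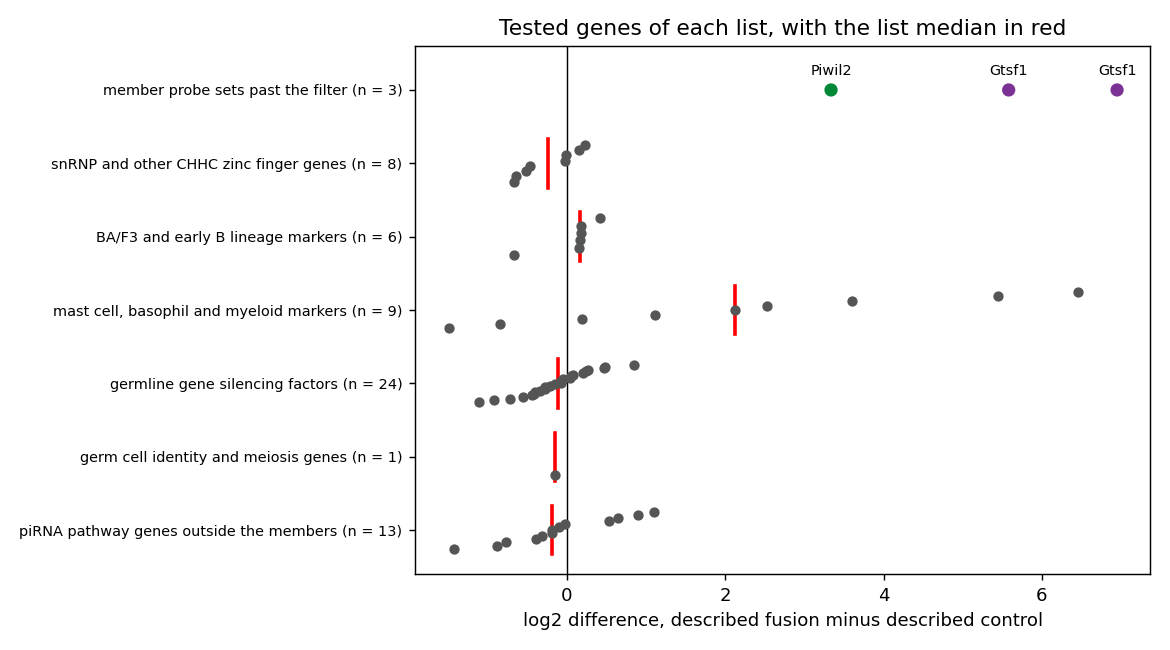
Log2 difference between the described fusion and described control libraries (horizontal axis) for each tested gene of 6 lists and for the 3 member probe sets past the filter (rows); points are genes at their brightest probe set, with n the number of points, and red bars are list medians. The further piRNA pathway genes spread around 0 with a median of -0.19, while Gtsf1 and Piwil2 lie at 3.34 to 6.95.

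Several markers of mast cells, basophils and myeloid cells had their higher readings in the same libraries as Gtsf1. By description 7 of 9 tested markers were higher, with a median of 2.13 against -0.01 over all tested probe sets. In limma 0 of 9 passed the threshold, against 0.0113% of all tested probe sets, and 2 of 9 had an unadjusted p under 0.05, against 19.7%. The other 12 of the 21 markers with a probe set fell below the filter. The filter uses the mean over all 4 libraries, so Fcer1a, near the floor in the described control libraries, passed through its described fusion readings. The list was also chosen with earlier results known, so nothing is read from this count or median. Fcer1a, the IgE receptor alpha chain, read 9.91 and 7.69 in the described fusion libraries against 2.37 and 2.32, a difference of 6.46 (SE 0.82, limma adjusted p = 0.13). Hdc, histidine decarboxylase, differed by 3.60 (SE 0.55, adjusted p = 0.14), the mast cell protease gene Cma1 by 5.44 (SE 1.93, adjusted p = 0.26), Ms4a2 by 2.13 (SE 0.88, adjusted p = 0.31) and Mitf by 1.11 (SE 0.39, adjusted p = 0.26). Lyz2, a myeloid marker also named after its values were seen, read 6.95 and 7.27 against 3.11 and 6.06. Its difference was 2.53 (SE 1.09, limma adjusted p = 0.32). Mpo and Prtn3, myeloid granule genes chosen here after their values were seen, went the other way, with differences of -1.49 (SE 2.15, adjusted p = 0.75) and -0.84 (SE 1.0, adjusted p = 0.69). Both had their highest reading in control replicate 2, a described control library. By title Ms4a2 and Gata2 differed by -1.46 and -0.35, with adjusted p = 1.

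The mean log2 value over the 21 markers with a probe set was 5.05 and 4.67 in the described fusion libraries and 3.60 and 4.14 in the described control libraries. Their summed linear signal was 14896 and 6971 against 7066 and 7066. Gata2, the brightest of them, made up most of that sum in every library, with log2 values of 13.26 and 12.44 against 12.71 and 12.60. The sum thus says little about the other markers. Kit, Mcpt1, Mcpt2, Elane, S100a8 and S100a9 were at the floor in all libraries, and Tpsab1 and Tpsb2 were near it. Also below the filter, Mcpt8 read 4.31 and 3.84 in the described fusion libraries against 2.39 and 2.37. Itgam had its highest reading, 3.48, in control replicate 2, a described control library. In these bulk RNA samples, fewer cells of a type and less RNA per cell cannot be told apart, and the part of these markers in the Gtsf1 and Piwil2 readings was not tested.

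The identity of the line was read from 18 early B lineage and BA/F3 markers. The interleukin 3 receptor genes Il3ra, Csf2rb and Csf2rb2, the leukocyte marker Ptprc and the B cell receptor component Cd79b were above the filter in every library. Pax5, Ebf1, Il7r, Rag1 and Vpreb1, which define early B cells, lay near the floor in all 4. They were among 9 of the 18 markers that stayed within 0.5 of it, against 53.2% of all probe sets outside the controls. Also below the filter, Cd79a read 4.47 in ETV6-RUNX1 replicate 2 and 2.69 to 2.89 in the other libraries. Blnk read 2.62 and 2.92 in the described fusion libraries against 2.23 in both described control libraries. Spn differed by -0.66 (SE 0.21, limma adjusted p = 0.23) by description, and the differences of Csf2rb, Csf2rb2, Cd79b and Il3ra lay between 0.16 and 0.42. By title Csf2rb2 and Cd79b differed by -0.27 and -0.34, with adjusted p = 1. The probe sets of Runx1 and Etv6, the genes joined in the fusion, are mouse sequences and the transgene is human, so whether they read it is not known. All 6 Runx1 and both Etv6 probe sets had negative title differences, -0.11 to -0.56, and positive description differences, 0.11 to 1.16. None passed the threshold in limma. In the replicate 1 pair, whose labels disagree, the described fusion library was higher by 0.23 to 1.55. In the replicate 2 pair, whose labels agree, the fusion library was higher by only 0 to 0.78. The negative title differences thus came from the replicate 1 pair. The share of all probe sets with these signs was not computed, so nothing is read from their count.

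The 3′ minus 5′ signal of a labelling spike differed between the described groups as well. For dap, a bacterial transcript added before labelling, it was 3.71 and 4.43 in the described fusion libraries and 3.10 and 3.19 in the described control libraries at one pair of probe sets, and larger there by 0.85 at the other pair. The same quantity for the cells' own Gapdh differed by 0.02 and for Actb by -0.03. Its part in the Gtsf1 and Piwil2 readings was not tested. Across libraries, Pearson correlations over the tested probe sets ran from 0.93 to 0.97.

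The genes around Gtsf1 on chromosome 15 had smaller differences between the described groups than Gtsf1. Since Gtsf1 was chosen for this difference, that was all but fixed in advance, and nothing is read from it. Of the 5 nearest genes on each side with a probe set of 1 symbol, 4 of 10 passed the filter. In limma 0 of these passed the threshold by description, with adjusted p-values of 0.26 to 0.78, against 0.0113% of all tested probe sets. Nckap1l, a hematopoietic regulator of actin, lies 23.3 kb from Gtsf1 on the side of the Gtsf1 transcription start. It read 9.98 and 9.44 in the described fusion libraries and 9.21 and 9.02 in the described control libraries. The difference was 0.59 (SE 0.25, limma adjusted p = 0.31). Pde1b, a cyclic nucleotide phosphodiesterase 72.6 kb away, read 9.25 and 8.33 against 7.76 and 7.77, a difference of 1.03 (SE 0.37, adjusted p = 0.26). Both lay on the same side of Gtsf1 and were higher without overlap in the described fusion libraries, as were 25.3% of all tested probe sets. Beyond them on that side, Ppp1r1a, Glycam1 and Mucl1 were near the floor.

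On the other side of Gtsf1 the nearest gene with a probe set, the integrin gene Itga5, 35.7 kb away, stayed between 3.33 and 3.34. Zfp385a and Gpr84 each had 1 value in all libraries, at 2.82 and 2.39. Copz1 and the erythroid factor gene Nfe2 differed by -0.12 (SE 0.20) and -0.18 (SE 0.23).

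Around Piwil2, whose neighbours were added after its values had been seen, 6 of 10 genes passed the filter. In limma 0 of these passed the threshold by description, against 0.0113% of all tested probe sets, so nothing is read from that count. Bmp1, a secreted metalloprotease gene 37.7 kb away, read 8.60 and 8.97 in the described fusion libraries and 7.32 and 7.49 in the described control libraries. Its difference was 1.38 (SE 0.22, limma adjusted p = 0.14). Polr3d, an RNA polymerase III subunit gene 1.85 kb from Piwil2, had a difference of -0.51 (SE 0.73, adjusted p = 0.75), and Slc39a14, 21.0 kb away on the other side, had one of -0.39 (SE 0.18, adjusted p = 0.35). Phyhip and Sorbs3 stayed at the floor, Sftpc and Lgi3 near it, and Ppp3cc, 9930012K11Rik and Pdlim2 differed by 0.54, 0.67 and 0.12.

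**Figure D3:**
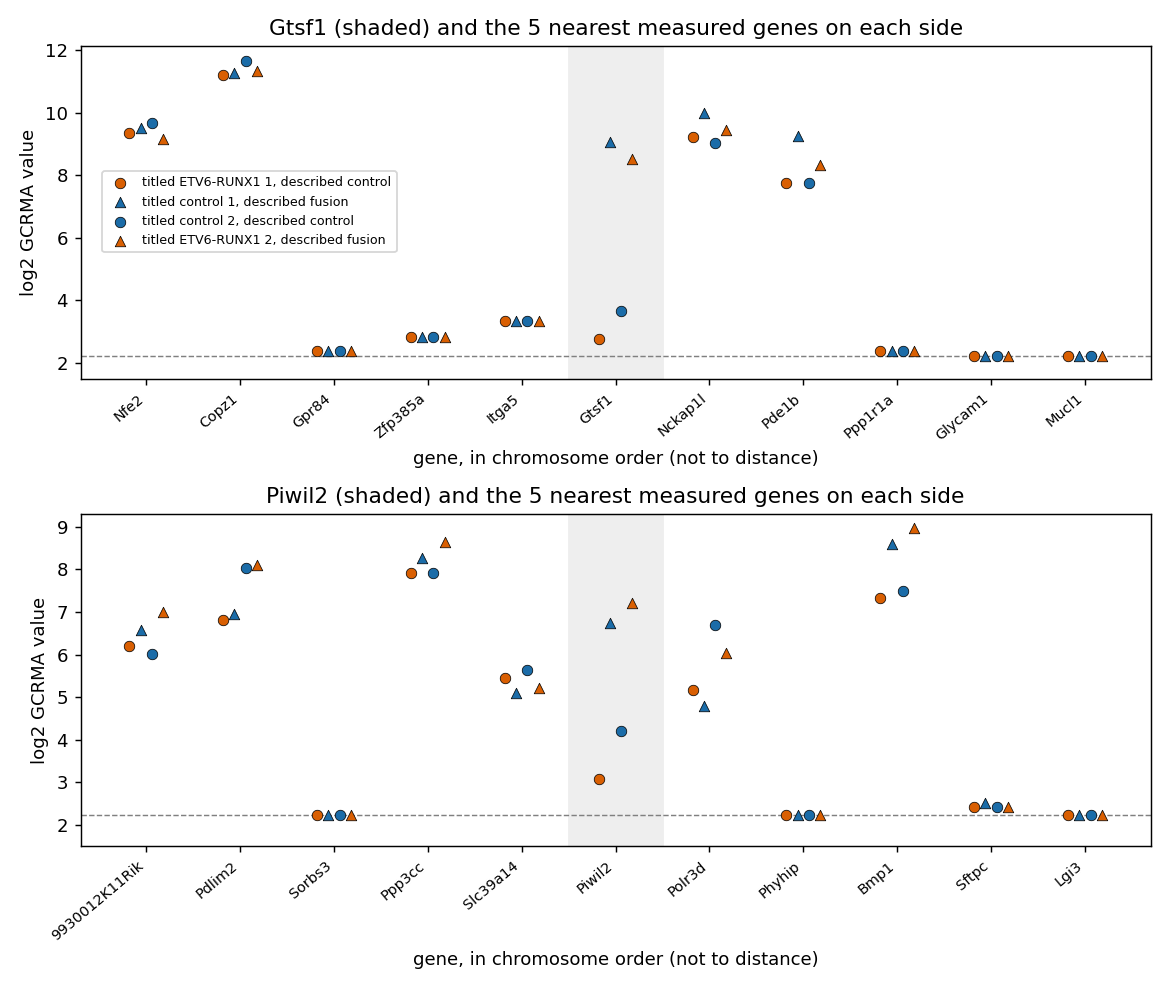
Log2 GCRMA value (vertical axis) of Gtsf1 (upper panel) and Piwil2 (lower panel), shaded, and of the 5 nearest genes with a probe set on each side, in chromosome order and not to distance; colours and shapes mark the 4 libraries as in the legend, and the dashed line is the floor. The gap between triangles and circles at Gtsf1 is 5.58 on average, and the widest mean gap at its neighbours is 1.03 at Pde1b. At Piwil2 the gap is 3.34 and the widest neighbouring one 1.38 at Bmp1. The members were chosen with this contrast in view, so nothing is read from the smaller gaps of their neighbours.

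The genes whose levels over the 4 libraries were most like those of Gtsf1 were read high in the described fusion libraries and low in the others. Likeness was the root mean square difference of log2 values over the 4 libraries after each probe set's mean was subtracted, with 1452967_at as the reference. The 6 nearest named genes were Anxa3, an annexin (0.40), Ccr2, a chemokine receptor (0.45), Slc11a1, a phagosomal metal transporter (0.47), Hal, histidine ammonia-lyase (0.49), Lgals3, galectin-3 (0.58), and Slfn4, a Schlafen family gene (0.60). Anxa3 read 7.92 and 7.04 in the described fusion libraries and 2.31 in both others. Ccr2 read 8.74 and 8.25 against 3.31 and 4.32. These genes follow the contrast for which Gtsf1 was chosen and are given as a description over 4 libraries.

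With 1441836_x_at as the reference, 4 of the 6 were again among the nearest, and Fcer1a was the nearest at 0.76. The 2 Gtsf1 probe sets differed from each other by 0.75 on this measure, and Piwil2 differed from 1452967_at by 1.18. The profile nearest to Piwil2 was that of Tespa1, a lymphocyte signalling protein, at 0.12, followed by Mirt1 (0.25), Epb42 (0.26), Svs2 (0.27), Serpinf1 (0.27) and Arntl2 (0.28). Tespa1 read 7.98 and 8.22 in the described fusion libraries and 4.08 and 5.44 in the described control libraries. As with Piwil2, ETV6-RUNX1 replicate 1 held its lowest reading and ETV6-RUNX1 replicate 2 its highest.

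**Figure D4:**
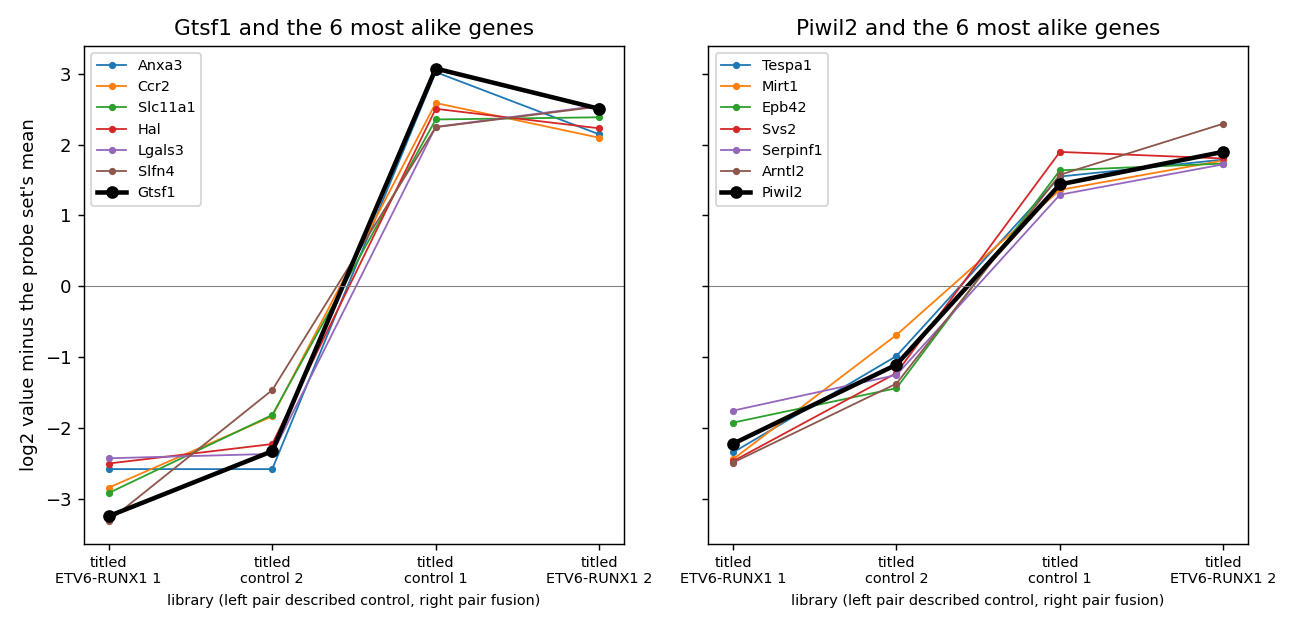
Log2 value minus the probe set's own mean (vertical axis) in the 4 libraries (horizontal axis, described control pair on the left, described fusion pair on the right) for Gtsf1 and Piwil2 (black) and the 6 genes most like each (coloured lines). Every line lies below 0 in the left pair and above 0 in the right pair, and each title appears once in each pair.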

How the data were processed

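RNA of 4 libraries was read on a mouse 3′ expression array. The deposited log2 values were made by the authors with the GCRMA package, version 2.28.0 according to the submitters' processing notes; the range of the values shows the log2 scale. The sources used here give no filters, batches or scan order. An array has no sequencing depth, so the precision is limited by the number of arrays. Each library's median was 2.35 to 2.36, and 17517 to 17688 probe sets per library were at 4 or more.

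Symbols came from the platform annotation, where 34958 probe sets had 1 symbol, 932 several and 9211 none listed. The 64 control probe sets were left out. Probe sets with a mean of at least 4, 17720 in all, were tested with limma 3.58.1 in R 4.3.3 (lmFit and trended eBayes, two-sided, Benjamini-Hochberg over all tested probe sets, threshold 0.05), by title and by description, which leaves 2 residual degrees of freedom. The test was checked on simulated data. The brightest tested probe set stood for a gene. From each list up to 5 genes with the smallest unadjusted p by description and up to 2 by title were named, with the 6 most alike genes, 5 neighbours per side, and Runx1 and Etv6; other names were chosen after their values were seen. The members and lists were chosen with earlier results of these data known. Genome positions are RefSeq's and were not used by the array.

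Alternatives were other filters, no trend, quantile normalization again, median centring, a replicate block, and each library left out.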

Additional observations from a re-analysis of the deposited data

How the results depend on the processing

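By description 2 probe sets passed the threshold; the count was 0 without the filter, 14 after quantile normalization again, 10 after median centring, and 0 to 0 with each library left out. Nothing in the labels says that replicate numbers pair libraries. With the replicate block the count by description was 0, and by title it stayed 0; same-numbered libraries deviated with a correlation of -0.20 by title and 0.59 by description. The crossed replicate block, added after the data were seen, gave 0 by title. Each replicate number holds 1 library of each group, so the block cannot change a difference of group means. The Gtsf1 differences of -0.74 by title and 5.58 by description are therefore not checked by it. The description difference of Gtsf1 was 6.26 for the mean of both probe sets and 6.95 for the other one, and 5.12 to 6.04 with each library left out. By title it ran from -3.62 to 2.13 with each library left out, and that of Piwil2 from -2.39 to 1.73, where without ETV6-RUNX1 replicate 1 or control replicate 1 (1.96 for Gtsf1, 0.94 for Piwil2) the sign turned. The 3 member probe sets above the floor stayed 3 at a distance of 1 or 3 and after median centring. No listed gene passed the threshold under any setting run, by title or by description. With 2 libraries per group and readings cut off at the floor, small differences in dim genes cannot be seen; the causes of these changes were not tested.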

Other observations

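Max, which encodes the E-box binding partner of MYC and of the germline-repressing complex, divided the libraries by replicate number rather than by either label. Its brightest probe set read 7.01 in ETV6-RUNX1 replicate 1 and 6.43 in control replicate 1, against 3.42 in control replicate 2 and 2.88 in ETV6-RUNX1 replicate 2. It was singled out after its values were seen. The title difference was 0.02 and the description difference -0.56 (SE 1.84, limma adjusted p = 0.90). Dnmt3b, a de novo DNA methyltransferase, was lower in the described fusion library of each replicate pair, at 6.08 against 7.30 in replicate 1 and 7.31 against 8.31 in replicate 2, but the described groups overlapped across replicates and the difference of -1.11 (SE 0.60, limma adjusted p = 0.40) did not pass.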
